A study of Homo sapiens with 20 samples.

Results

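The 34 genes described here make cholesterol and fatty acids or control that synthesis through the sterol regulatory element-binding proteins (SREBPs). They are 18 enzymes of sterol synthesis, 6 regulators and carriers, and 10 enzymes of fatty acid synthesis, elongation and desaturation, chosen by symbol from the 26038 genes of the deposited table. They were measured by RNA-seq of polyA RNA in MHCC-97H cells, an established line from a human liver cancer. The 4 groups had 5 libraries each, and all cells spent 15 minutes in a water bath and a further 24 hours in culture. One experiment set wild-type cells bathed at 47 °C (R-47) against wild-type cells bathed at 37 °C (R-37), the only group not heated above body temperature. In the other, cells labelled as an NFS1 knockdown (NFS1) and cells labelled wild type (NC) were all bathed at 47 °C. Per the design text the knockdown was made with shRNA. The sources used here name neither the hairpin nor what NC cells carried, and none says that replicates are independent cultures. The p-values therefore speak of the variation among these libraries alone, and that variation may be technical.

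SREBPs are transcription factors made as membrane proteins of the endoplasmic reticulum. SCAP escorts them to the Golgi, where proteases release the active part, and the INSIG proteins hold SCAP back when sterols are plentiful. SREBF2 acts mainly on cholesterol synthesis and SREBF1 mainly on fatty acid synthesis, in liver as in other tissues, and INSIG1 is itself a target, so it is a common readout of the pathway.

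SREBPs bind sterol regulatory elements and act together with the factors NF-Y and SP1, which bind CCAAT and GC boxes. RefSeq promoter sequences on GRCh38.p14, from 250 bases before to 50 bases after the gene start, were at hand for 30 of the 34 genes. ACAT2, FDFT1, SQLE and FASN had no entry. Where RefSeq lists several starts for a gene, the first entry in its table was used, and for some genes, DHCR7 among them, that start lies inside the annotated gene. The stretches below belong to some of the 30 genes, not all of which passed in the comparisons below, and were cut to end before the exons of coding transcripts in GENCODE. Capitals mark CCAAT on either strand (ATTGG when read on the opposite strand) and, in SREBF2, a sterol regulatory element. Each is written 5′ to 3′ on the strand of its gene.
NSDHL, chrX:152830823-152830966, + strand: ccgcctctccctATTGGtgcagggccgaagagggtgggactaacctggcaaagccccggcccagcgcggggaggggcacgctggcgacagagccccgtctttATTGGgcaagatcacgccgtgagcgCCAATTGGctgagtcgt
MSMO1, chr4:165327479-165327622, + strand: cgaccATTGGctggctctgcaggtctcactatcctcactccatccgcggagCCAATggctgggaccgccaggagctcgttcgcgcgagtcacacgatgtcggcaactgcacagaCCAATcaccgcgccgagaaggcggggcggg
INSIG1, chr7:155297698-155297775, + strand: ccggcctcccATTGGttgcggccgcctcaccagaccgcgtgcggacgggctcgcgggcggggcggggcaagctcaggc
STARD4, chr5:111512591-111512705, - strand: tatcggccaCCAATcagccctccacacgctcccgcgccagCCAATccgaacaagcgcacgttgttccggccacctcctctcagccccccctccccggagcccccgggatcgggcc
SREBF2, chr22:41832965-41833078, + strand: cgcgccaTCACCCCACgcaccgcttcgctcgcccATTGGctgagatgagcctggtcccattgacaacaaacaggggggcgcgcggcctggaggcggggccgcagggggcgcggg
SCD, chr10:100346993-100347123, + strand: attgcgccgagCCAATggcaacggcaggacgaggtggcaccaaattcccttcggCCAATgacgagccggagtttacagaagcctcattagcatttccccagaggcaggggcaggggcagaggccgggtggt
ACACA, chr17:37406950-37407086, - strand: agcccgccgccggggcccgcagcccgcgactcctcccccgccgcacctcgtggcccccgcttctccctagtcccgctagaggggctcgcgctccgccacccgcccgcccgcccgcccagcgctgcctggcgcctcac

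Shares of promoters with CCAAT differed by role. Counting both strands of that window, 12 of 15 sterol enzyme promoters (80.0%) held CCAAT, and 9 of 15 held it 2 or more times. Among the fatty acid genes 3 of 9 (33.3%) held it, in ACLY, SCD and ELOVL5, and among the regulators and carrier 3 of 6. Over the 18506 genes of the table with a promoter entry, 35.9% held CCAAT and 12.1% held it 2 or more times. In NSDHL the overlapping letters CCAATTGG count once for each strand. The GC box GGGCGG, which does not overlap CCAAT, lay in 26 of 30 promoters of these genes (86.7%) and in 55.2% of all. The sterol regulatory element was searched in the spelling TCACNCCAC only, so other spellings and sites outside the window were not counted. Of the 30 promoters that spelling was found only in SREBF2, starting 133 bases before the gene start. It was found in 1.12% of all promoters. These counts describe letters in a window and carry no test.

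**Figure D1:**
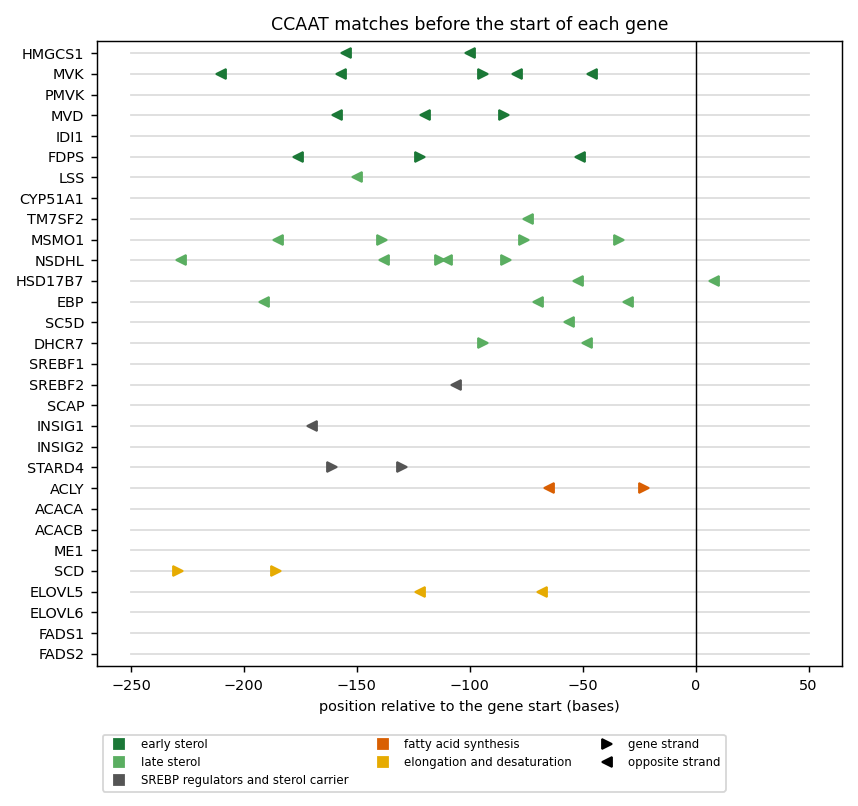
Position of CCAAT in the promoters of the 30 genes with a RefSeq entry (horizontal axis, bases from the gene start; rightward triangles, gene strand; leftward triangles, opposite strand; colours, role). Sterol enzymes hold most of the matches (12 of 15 promoters), while 6 of the 9 fatty acid genes have none.

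Total counts per library were 35431078 to 39094039 in R-47, 32219946 to 39689939 in R-37, 35426499 to 36253443 in NFS1 and 35732485 to 36744075 in NC. The lowest count of any of the 34 genes was 91, for HSD17B7. NFS1, the cysteine desulfurase named in the knockdown label, stood at 70.6, 64.6, 63.6, 64.0 and 67.9 CPM (counts scaled to a common library total) in NFS1 libraries, against 71.4, 72.6, 71.2, 71.5 and 75.7 CPM in NC. The groups did not overlap, but the change was small and did not pass (log2 fold change -0.11, SE 0.05, adjusted p = 0.114, edgeR's quasi-likelihood test), so the libraries are called here by their label. HSPA6, an inducible chaperone, differed widely inside the second experiment, at 56.5, 248, 244, 22.3 and 82.6 CPM in NFS1 replicates 1 to 5 and 5.41 to 38.9 CPM in NC. For this reason counts of the second experiment are also given without NFS1 replicates 2 and 3. Liver transcription factor HNF4A was present in all groups, at 45.9 to 96.0 CPM on average. ALB averaged 5.11 CPM in R-47 libraries, 14.2 CPM in R-37, 0.630 CPM in NFS1 and 0.847 CPM in NC. GPC3 and APOA2, also on the list of liver and liver cancer markers, were at or near 0 in every group. The 4 leukocyte markers summed to 0.709 to 1.80 CPM over all libraries and the 2 adipocyte markers to 0.0563 to 0.607 CPM. Of the endothelial list PECAM1 and KDR were present and CDH5 was at or near 0. The list also holds VWF. Of its 4 genes, 2 passed the filter in R-47 against R-37 and 3 in NFS1 against NC. In NC against R-47, 2 of them were called higher and 1 lower. The 4 endothelial genes summed to 74.5 CPM in R-47, 72.7 CPM in R-37, 53.7 CPM in NFS1 and 61.9 CPM in NC. Summed, the 11 liver markers stood at 6508 CPM in R-47, 6963 CPM in R-37, 3901 CPM in NFS1 and 4769 CPM in NC. Of 8 heat shock genes, R-47 against R-37 called 6 lower and none higher, and NFS1 against NC called 4 higher and none lower. Over all genes tested these comparisons called 13.2% lower and 11.9% higher, and 12.5% lower and 15.7% higher. The 4 fibroblast markers summed to 1.245 CPM in R-47, 0.904 CPM in R-37, 5.88 CPM in NFS1 and 6.001 CPM in NC. The part of these genes in the results was not tested.

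Per length of gene, FDPS, the enzyme that makes farnesyl diphosphate, was the highest of the 34 genes in all groups, with a mean of 127 FPKM (fragments scaled by gene length and library total) in R-47, 129.99 FPKM in R-37, 76.4 FPKM in NFS1 and 85.3 FPKM in NC. The gene in rank 2 differed: EBP, a sterol isomerase, in R-47 (98.0 FPKM), SCD, the desaturase that makes oleate, in R-37 (110 FPKM), and ACLY, which supplies acetyl-CoA, in NFS1 (63.8 FPKM) and NC (76.2 FPKM). STARD4, which carries sterols between membranes, was the lowest in every group, between 0.572 and 0.932 FPKM. TM7SF2, a sterol reductase, changed place most between experiments: it ranked 30 of 34 in R-47 and 32 in R-37, but 15 in NFS1 and 10 in NC. All further levels are CPM scaled by TMM over the 20 libraries, which compare libraries and not genes.

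Wild-type cells held at 47 °C had lower levels of sterol and fatty acid synthesis genes 24 hours later than cells held at 37 °C. Of the 34 genes, 18 were lower, 1 was higher and 15 did not pass an adjusted p of 0.05 by edgeR's quasi-likelihood test over 14344 genes. Over all genes tested 13.2% were lower and 11.9% higher. The median log2 fold change was -0.20 for the 34 genes and -0.01 for all genes. The summed level of the 10 fatty acid genes was 2411 ± 93.0 CPM in R-47 libraries and 3045 ± 76.6 CPM in R-37, and that of the 18 sterol enzymes was 1220 ± 20.5 CPM in R-47 and 1353 ± 20.9 CPM in R-37 (SD, n = 5 each). Neither sum overlapped between the groups.

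**Figure D2:**
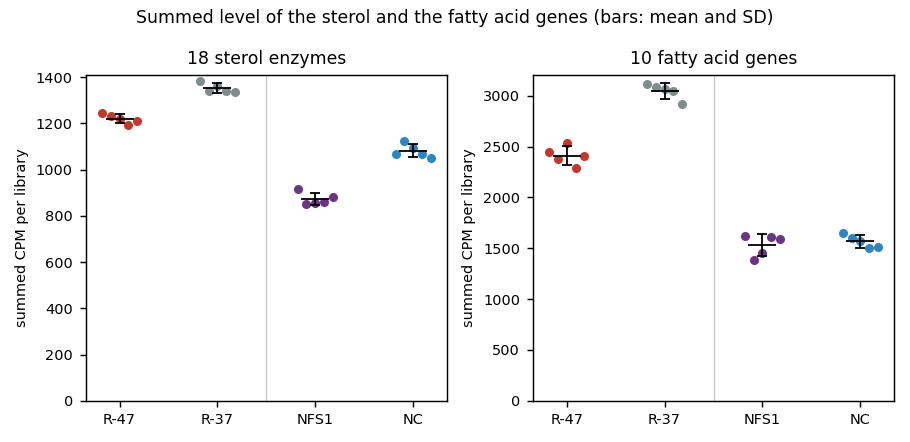
Summed CPM of the 18 sterol enzymes (left) and the 10 fatty acid genes (right) in each library, with mean and SD per group (n = 5). R-47 libraries lie below R-37 in both panels, and NFS1 libraries lie below NC for the sterol enzymes (873 against 1081 CPM) but overlap NC for the fatty acid genes.

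The regulators fell in part. SREBF1, the factor of fatty acid synthesis, had 125, 129, 140, 110 and 126 CPM in R-47 libraries, against 187, 162, 173, 177 and 142 CPM in R-37 (log2 fold change -0.40, SE 0.07, adjusted p = 9.17e-04, edgeR). SREBF2, the factor of cholesterol synthesis, had 97.8, 93.7, 103, 96.5 and 98.6 CPM in R-47 libraries, against 120, 113, 114, 112 and 105 CPM in R-37 (log2 fold change -0.19, SE 0.05, adjusted p = 0.009). For both factors every R-47 library lay below every R-37 library. The retention factor INSIG1 had 32.8, 25.5, 26.3, 26.1 and 26.5 CPM in R-47 libraries, against 35.9, 42.1, 42.6, 40.1 and 46.4 CPM in R-37 (log2 fold change -0.58, SE 0.08, adjusted p = 1.37e-04). R-47 replicate 1 stood highest of its group and still below the lowest R-37 library. Its relative INSIG2 did not follow, with 20.2, 17.1, 17.3, 17.8 and 16.4 CPM in R-47 libraries, against 19.3, 18.5, 17.1, 16.8 and 18.7 CPM in R-37 (log2 fold change -0.01, 95% interval -0.15 to 0.13). STARD4 had 7.63, 5.15, 6.30, 6.31 and 5.37 CPM in R-47 libraries, against 8.48, 9.60, 9.38, 8.99 and 10.4 CPM in R-37 (log2 fold change -0.59, SE 0.11, adjusted p = 0.0011). The escort SCAP averaged 73.9 ± 4.1 CPM in R-47 and 81.0 ± 7.9 CPM in R-37, and the groups overlapped. In bulk libraries fewer cells with a transcript and less of it per cell cannot be told apart.

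Along the sterol pathway most calls were at the later steps. Over all genes tested 13.2% were lower and 11.9% higher. Of the 8 early enzymes, which lead from acetyl-CoA to squalene, 2 fell and none rose. These were IDI1, the isomerase of the isoprenoid unit (35.4 ± 3.6 CPM in R-47, 45.9 ± 3.3 CPM in R-37), and FDFT1, the squalene synthase (199 ± 6.0 CPM in R-47, 220 ± 7.2 CPM in R-37). For IDI1 14.8% of exonic bases overlap IDI2-AS1 on the other strand, and the strand setting of the counting is not given. HMGCS1, which makes HMG-CoA, ACAT2, MVK, PMVK, MVD and FDPS did not pass, with log2 fold changes between -0.16 (MVK) and 0.10 (MVD). Of the 10 later enzymes, from squalene to cholesterol, 6 fell and 1 rose. SQLE, the squalene epoxidase, fell by 0.34 on the log2 scale, the desaturase SC5D by 0.34, the lanosterol demethylase CYP51A1 by 0.24, the final reductase DHCR7 by 0.24 and the lanosterol synthase LSS by 0.21. Of these 5, the groups of SQLE alone did not overlap, and the share of all genes without overlap was not counted. CYP51A1 has 3 named pseudogenes, which may share its reads.

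HSD17B7, the ketoreductase of sterol demethylation, had the lowest fold change of the sterol enzymes. HSD17B7 stood at 3.17, 3.80, 3.33, 2.96 and 4.15 CPM in R-47 libraries, against 4.97, 6.49, 4.26, 6.05 and 6.06 CPM in R-37 (log2 fold change -0.66, SE 0.14, adjusted p = 0.0029, edgeR's test). The groups did not overlap, although 2 named pseudogenes may share its reads. TM7SF2 went the other way, with 6.95, 8.16, 6.87, 5.71 and 7.94 CPM in R-47 libraries, against 4.77, 3.29, 4.26, 4.51 and 3.55 CPM in R-37 (log2 fold change 0.82, SE 0.13, adjusted p = 3.62e-04). Every R-47 library was above every R-37 library, and TM7SF2 was the 1 gene of the 34 that passed as higher in this fit. MSMO1, the methyl sterol oxidase, had 32.6 ± 6.5 CPM in R-47 and 40.5 ± 5.5 CPM in R-37 and did not pass (adjusted p = 0.0714). NSDHL, the dehydrogenase of sterol demethylation, and the isomerase EBP did not pass either, with log2 fold changes of 0.05 (95% interval -0.06 to 0.15) and 0.04 (-0.07 to 0.14).

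Of the 10 fatty acid genes 6 passed as lower and none as higher. Among those of the 34 genes that fell, SCD changed most. It had 402, 371, 380, 357 and 371 CPM in R-47 libraries, against 632, 667, 645, 629 and 675 CPM in R-37 (log2 fold change -0.78, SE 0.04, adjusted p = 1.98e-08, edgeR's test). The lowest R-37 library was above the highest R-47 library by more than the whole range of either group. ELOVL5, an elongase of polyunsaturated chains, averaged 159 ± 12 CPM in R-47 and 225 ± 21 CPM in R-37 (log2 fold change -0.49). FADS2, the first desaturase of that route, averaged 127 ± 8.8 CPM in R-47 and 169 ± 6.6 CPM in R-37, while its neighbour FADS1 did not pass (195 ± 5.6 CPM in R-47, 188 ± 5.4 CPM in R-37). ACACA, the cytosolic acetyl-CoA carboxylase, averaged 178 ± 6.6 CPM in R-47 and 235 ± 9.8 CPM in R-37. ME1, an NADPH source, averaged 116 ± 5.4 CPM in R-47 and 153 ± 12 CPM in R-37. FASN fell by 0.24 on the log2 scale, with overlapping groups. SCD and FADS2 each have 1 named pseudogene, which may share reads. ACLY, ACACB, the mitochondrial carboxylase, and the elongase ELOVL6 did not pass (log2 fold changes -0.07, -0.06 and 0.15). Over 12 other settings of the processing, ELOVL6 passed as higher in 7 and FADS1 in 5.

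**Figure D3:**
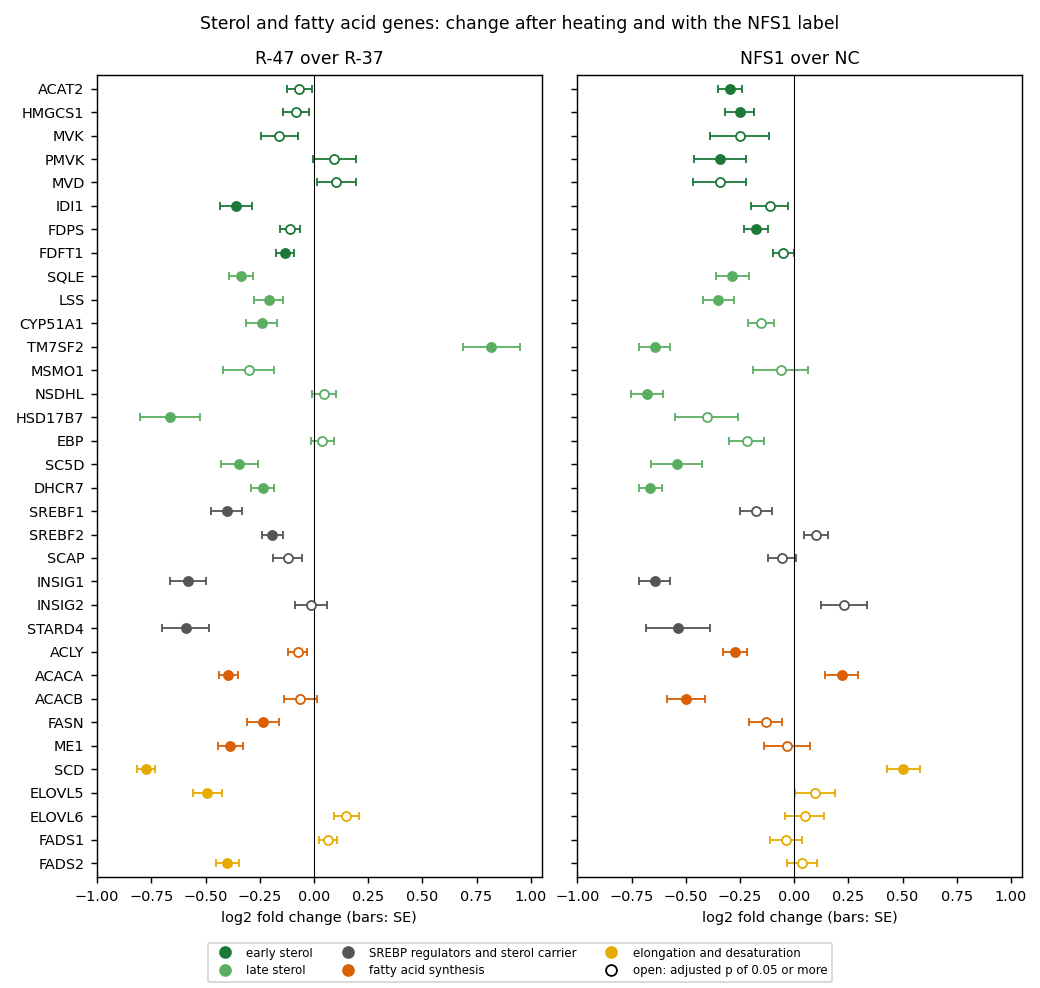
Log2 fold change of each of the 34 genes (rows, by role) with its SE, R-47 over R-37 (left) and NFS1 over NC (right). Filled points have an adjusted p under 0.05. TM7SF2 is the 1 filled point right of 0 after heating, and with the NFS1 label the 18 sterol enzymes all lie left of 0 while SCD and ACACA lie right of it.

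Of these calls, FDFT1, LSS, CYP51A1, FASN and SREBF2 were lost when libraries were scaled by library size alone, which left 13 genes lower and 3 higher and turned the balance over all genes to 7.06% lower and 20.8% higher. Across genes the log2 fold change rose with GC content (Spearman 0.39 over 12992 genes, which are not independent), and with offsets for length and GC 23 of the 34 genes were lower and 3 higher. Over all genes the calls with these offsets also rose, to 17.5% lower and 17.0% higher.

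Other genes around the pathway were counted in the same way. Of 9 genes of SREBP processing and turnover, 3 fell and 2 rose, among them ERLIN1, which helps to degrade sterol-regulated membrane proteins (69.0 ± 3.2 CPM in R-47, 84.3 ± 1.7 CPM in R-37), and MBTPS1, the first SREBP protease (log2 fold change -0.23, SE 0.05). Of 12 other lipid genes linked to SREBP that were tested, 4 fell and none rose; ACSL3, an acyl-CoA synthetase, averaged 140 ± 6.3 CPM in R-47 and 188 ± 15 CPM in R-37. Of 12 genes on the nonsterol branches of the mevalonate pathway, 5 fell and 1 rose, and COQ2, of ubiquinone synthesis, changed most (log2 fold change -0.42, SE 0.08). Of 11 tested genes of cholesterol handling and LXR, 2 fell and 1 rose, and of 11 genes of fatty acid oxidation 4 fell and none rose. The share over all genes was 13.2% lower and 11.9% higher, near that of the cholesterol handling list.

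In the second experiment the sterol enzymes were lower in the libraries labelled NFS1 than in NC, and the fatty acid genes did not move one way. Of the 34 genes 14 were lower, 2 were higher and 18 did not pass by edgeR's quasi-likelihood test over 15086 genes, of which 12.5% were lower and 15.7% higher. The median log2 fold change was -0.20 for the 34 genes and 0.02 for all genes. All 18 sterol enzymes had a negative log2 fold change, and 10 passed. Their summed level was 873 ± 26.1 CPM in NFS1 libraries and 1081 ± 28.2 CPM in NC, without overlap, whereas the fatty acid genes summed to 1534 ± 106 CPM in NFS1 and 1567 ± 60.7 CPM in NC and overlapped.

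Of the regulators only INSIG1, and with it the carrier STARD4, passed. INSIG1 had 12.6, 13.96, 12.7, 13.0 and 11.5 CPM in NFS1 libraries, against 20.9, 21.1, 19.4, 19.5 and 20.3 CPM in NC (log2 fold change -0.64, SE 0.07, adjusted p = 2.47e-05, edgeR). STARD4 had 5.04, 5.66, 6.01, 8.17 and 4.86 CPM in NFS1 libraries, against 10.2, 10.0003, 7.31, 8.40 and 7.90 CPM in NC (log2 fold change -0.54, SE 0.15, adjusted p = 0.0143). The INSIG1 groups were far apart, while NFS1 replicate 4 reached into the NC range for STARD4. SREBF1 had 116, 89.6, 96.0, 90.6 and 109 CPM in NFS1 libraries, against 114, 114, 125, 109 and 112 CPM in NC (log2 fold change -0.18, SE 0.07, adjusted p = 0.0853). SREBF2 had 97.5, 89.5, 91.4, 83.4 and 97.7 CPM in NFS1 libraries, against 84.0, 89.1, 89.4, 83.5 and 88.8 CPM in NC (log2 fold change 0.10, SE 0.05, adjusted p = 0.187). Both factors overlapped between the groups. INSIG2 had 23.5, 22.7, 19.6, 26.8 and 23.5 CPM in NFS1 libraries, against 18.1, 25.0, 20.5, 17.0 and 19.8 CPM in NC (log2 fold change 0.23, SE 0.11, adjusted p = 0.119). SCAP averaged 102 ± 10 CPM in NFS1 and 108 ± 4.7 CPM in NC.

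Of the 8 early sterol enzymes 4 fell: ACAT2, HMGCS1, PMVK, the phosphomevalonate kinase, and FDPS, with log2 fold changes of -0.30, -0.25, -0.34 and -0.18. HMGCS1 averaged 49.03 ± 3.8 CPM in NFS1 libraries and 59.3 ± 2.9 CPM in NC, with no overlap. MVK, the mevalonate kinase, MVD, the decarboxylase that follows, IDI1 and FDFT1 did not pass. ACAT2 is uncertain, since 52.3% of its exonic bases overlap SOD2, SOD2-OT1 or TCP1 on the other strand and the strand setting of the counting is not given in the sources used here. FDPS has 8 named pseudogenes, which can share its reads, and 18.6% of its exonic bases overlap RUSC1-AS1 on the other strand. Its log2 fold change was -0.08 with length and GC offsets (adjusted p = 0.192), and its call was also lost without NFS1 replicates 2 and 3 (adjusted p = 0.119) and with the replicate number as a block (adjusted p = 0.076). Across genes this comparison's log2 fold change had a Spearman correlation of -0.229 with GC content and 0.235 with length.

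The later enzymes held the widest differences. NSDHL had 32.1, 32.8, 33.4, 27.0 and 28.6 CPM in NFS1 libraries, against 45.7, 49.4, 48.5, 54.6 and 52.3 CPM in NC (log2 fold change -0.68, SE 0.07, adjusted p = 1.85e-05, edgeR). DHCR7 had 96.5, 84.1, 84.3, 86.6 and 91.4 CPM in NFS1 libraries, against 148, 147, 143, 136 and 137 CPM in NC (log2 fold change -0.66, SE 0.05, adjusted p = 1.16e-06). TM7SF2 had 38.5, 30.9, 29.7, 32.2 and 35.6 CPM in NFS1 libraries, against 52.0, 56.2, 53.7, 52.3 and 50.1 CPM in NC (log2 fold change -0.64, SE 0.07, adjusted p = 1.90e-05). For these 3 genes no NFS1 library came near the NC range. SC5D had 13.6, 17.7, 15.3, 19.998 and 13.4 CPM in NFS1 libraries, against 25.0, 25.9, 19.7, 24.6 and 23.3 CPM in NC (log2 fold change -0.54, SE 0.12, adjusted p = 0.0031), and NFS1 replicate 4 was above the lowest NC library. LSS and SQLE also fell, by 0.35 and 0.29 on the log2 scale. CYP51A1, MSMO1, HSD17B7 and EBP did not pass, although HSD17B7 (adjusted p = 0.0511) and EBP (adjusted p = 0.0578) lay close to the threshold, as did the early enzyme MVD (adjusted p = 0.0511).

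**Figure D4:**
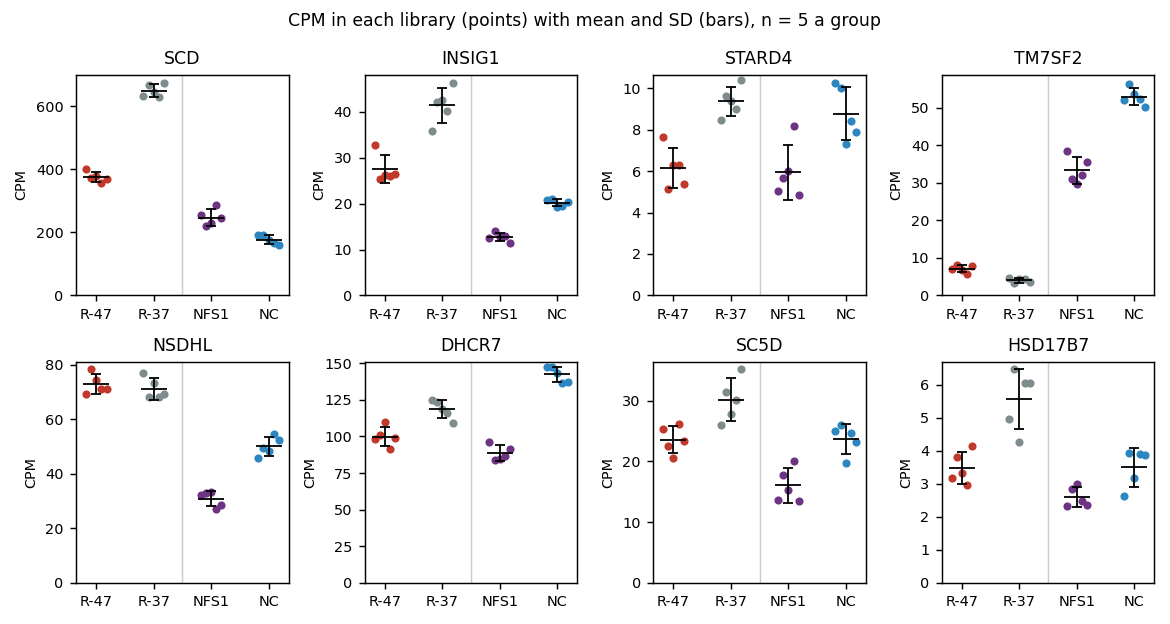
CPM of 8 genes in each library, with mean and SD per group (n = 5), R-47 and R-37 left of the line and NFS1 and NC right of it. INSIG1 averages 27.4 CPM in R-47 and 41.4 CPM in R-37, and 12.7 CPM in NFS1 and 20.2 CPM in NC; SCD is lower in R-47 but higher in NFS1, and TM7SF2 averages 7.13 CPM in R-47 and 4.08 CPM in R-37, and 33.4 CPM in NFS1 and 52.9 CPM in NC.

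Among the 10 fatty acid genes 2 fell and 2 rose, near the shares over all genes (12.5% lower and 15.7% higher). SCD had 256, 219, 228, 285 and 247 CPM in NFS1 libraries, against 193, 190, 176, 166 and 160 CPM in NC (log2 fold change 0.50, SE 0.08, adjusted p = 2.48e-04, edgeR). Every NFS1 library was above every NC library. ACACA averaged 81.4 ± 6.5 CPM in NFS1 and 71.0 ± 6.9 CPM in NC (log2 fold change 0.22, SE 0.08, adjusted p = 0.0422), with overlap. Its relative ACACB averaged 7.18 ± 0.66 CPM in NFS1 and 10.3 ± 0.47 CPM in NC (log2 fold change -0.50, SE 0.09, adjusted p = 7.10e-04), with none. ACLY averaged 263 ± 19 CPM in NFS1 and 322 ± 16 CPM in NC, again with none. FASN, ME1, ELOVL5, ELOVL6, FADS1 and FADS2 did not pass, with log2 fold changes between -0.13 (FASN) and 0.10 (ELOVL5).

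Without NFS1 replicates 2 and 3, in which HSPA6 was highest, 11 of the 34 genes were lower and 2 higher, and SQLE (adjusted p = 0.097) and STARD4 (adjusted p = 0.070) were among the calls lost. The rise of ACACA did not pass when any 1 of 7 libraries was left out (NFS1 replicates 1, 3 and 5 and NC replicates 2 to 5, adjusted p = 0.061 to 0.113), and the fall of PMVK when any 1 of 7 was (NFS1 replicates 2, 3 and 5 and NC replicates 2 to 5, adjusted p = 0.053 to 0.106).

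Of the 9 genes of SREBP processing and turnover 6 rose and none fell with the NFS1 label. ERLIN1 averaged 46.1 ± 3.3 CPM in NFS1 libraries and 29.3 ± 1.4 CPM in NC (log2 fold change 0.67, SE 0.06). The ubiquitin ligases RNF145 and RNF139, of the endoplasmic reticulum membrane, rose by 0.47 and 0.22 on the log2 scale. Of 12 other lipid genes linked to SREBP 6 fell and 1 rose. GPAM, the first acyltransferase of triglyceride synthesis, averaged 25.4 ± 3.3 CPM in NFS1 and 16.5 ± 0.76 CPM in NC, and the phosphatidate phosphatase LPIN1 averaged 20.6 ± 2.8 CPM in NFS1 and 30.5 ± 2.0 CPM in NC. Of 12 genes on nonsterol branches 2 fell, COQ2 and RCE1, and 1 rose, PDSS1. Of 10 tested genes of cholesterol handling and LXR 1 fell and 3 rose, SMPDL3A, CYP27A1 and SOAT1, and of 11 genes of fatty acid oxidation 1 fell, ETFA. Over all genes 12.5% were lower and 15.7% higher.

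The heat and NFS1 comparisons share no library. Lower in both were 6 of the 34 genes: INSIG1, STARD4, SQLE, LSS, SC5D and DHCR7. Over the 13777 genes tested in both, 1.56% were lower in both. The count was 12 with length and GC offsets and 3 with log2(FPKM + 1) and no filter. Called lower after heating and not called with the NFS1 label were 10 genes (SREBF1, SREBF2, IDI1, FDFT1, CYP51A1, HSD17B7, FASN, ME1, ELOVL5 and FADS2), and called lower with the NFS1 label and not after heating were 7 (ACAT2, HMGCS1, PMVK, FDPS, NSDHL, ACLY and ACACB). A call in 1 comparison does not show that the changes differ: the test of the difference, given next, did not call SREBF1, IDI1, FDFT1, CYP51A1, HSD17B7 or FASN of the first set, nor HMGCS1 or FDPS of the second. SCD and ACACA fell after heating and rose with the NFS1 label, and TM7SF2 did the reverse. Neither comparison called MVK, MVD, MSMO1, EBP, SCAP, INSIG2, ELOVL6 or FADS1.

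The difference between the 2 changes, R-47 over R-37 minus NFS1 over NC, was tested for each gene in one fit of all 20 libraries over 15822 genes, a test chosen after the data were seen. It was called lower for 6 of the 34 genes and higher for 9, beside 17.2% and 15.3% of all genes. SCD had the lowest difference (log2 -1.27, SE 0.09, adjusted p = 2.29e-10, edgeR), and ACACA, ELOVL5, FADS2, ME1 and SREBF2 were also lower after heating relative to the NFS1 change. TM7SF2 had the highest (log2 1.48, SE 0.14, adjusted p = 4.32e-08), followed by NSDHL (0.74, SE 0.09), and DHCR7 was at 0.44 (SE 0.08). ACAT2, PMVK, MVD, EBP, ACLY and ACACB made up the rest of those called higher. For INSIG1 the difference was 0.08 (95% interval -0.14 to 0.29) and for STARD4 -0.04 (-0.41 to 0.33). Called lower were 3 of the 5 elongation and desaturation genes and none of the 18 sterol enzymes, and 7 of the 18 sterol enzymes were called higher. With length and GC offsets 4 of these 7 lost the call: ACAT2 (adjusted p = 0.267), PMVK (0.182), MVD (0.140) and EBP, whose difference turned to -0.02 (0.804). ACLY (0.076) and ME1 (0.096) lost it too. PMVK, MVD, EBP, ACLY and ME1 each lost the call when certain single libraries were left out (adjusted p = 0.052 to 0.094).

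**Figure D5:**
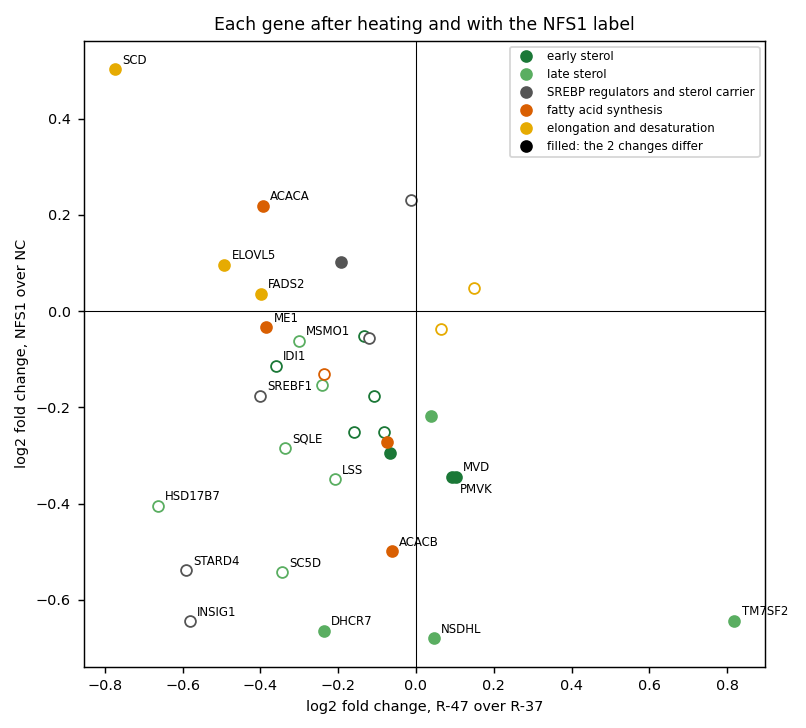
Log2 fold change of each of the 34 genes, R-47 over R-37 (horizontal) against NFS1 over NC (vertical), 2 comparisons with no library in common. Filled points are genes whose 2 changes differ by the test of the difference; SCD (-0.78 and 0.50) and TM7SF2 (0.82 and -0.64) lie farthest apart, and INSIG1 (-0.58 and -0.64) and STARD4 (-0.59 and -0.54) lie low in both.

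NC and R-47 carry the same wild-type label and the same 47 °C bath, so their levels show how far the experiments differed. Of the 34 genes 19 were lower in NC than in R-47, 7 were higher and 8 did not pass, while 39.6% of the 15080 genes tested were lower and 40.1% higher, so most genes differed. Experiment, culture and anything NC cells carried cannot be told apart here, and this comparison shares libraries with both of the others.

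TM7SF2 stood out in level, at 50.1 to 56.2 CPM in NC and 5.71 to 8.16 CPM in R-47 libraries (log2 fold change 2.90, SE 0.08, adjusted p = 1.15e-18, edgeR). EBP had 39.4, 47.0, 48.0, 43.3 and 42.9 CPM in NC libraries, against 118, 117, 115, 115 and 120.0 CPM in R-47 (log2 fold change -1.39, SE 0.05). MSMO1 had 16.3, 14.7, 13.0, 15.2 and 12.2 CPM in NC libraries, against 43.7, 27.8, 28.2, 31.9 and 31.4 CPM in R-47 (log2 fold change -1.18, SE 0.11). The groups of these 3 later sterol enzymes did not overlap, in a comparison that called 39.6% of all genes lower and 40.1% higher. MVK had 12.1, 14.3, 15.2, 13.9 and 13.7 CPM in NC libraries, against 29.8, 31.2, 31.2, 27.9 and 28.5 CPM in R-47 (log2 fold change -1.09, SE 0.07). FDPS had 128, 140, 139, 131 and 134 CPM in NC libraries, against 231, 234, 231, 223 and 225 CPM in R-47 (log2 fold change -0.76, SE 0.04). Both early enzymes were lower in every NC library. Among the fatty acid genes ACACA had 82.0, 73.0, 69.0, 66.1 and 64.8 CPM in NC libraries, against 172, 178, 189, 173 and 176 CPM in R-47 (log2 fold change -1.31, SE 0.06). SCD had 160 to 193 CPM in NC and 357 to 402 CPM in R-47 libraries (log2 fold change -1.08, SE 0.05), and ELOVL5 had 106, 101, 87.3, 89.1 and 85.4 CPM in NC libraries, against 178, 152, 149, 160 and 154 CPM in R-47 (log2 fold change -0.75, SE 0.06). All 10 fatty acid genes had negative log2 fold changes, and 9 passed. SREBF1 (log2 fold change -0.12, adjusted p = 0.0465, edgeR) and SREBF2 (-0.16, adjusted p = 0.0024) were both called slightly lower in NC. The groups overlapped for SREBF1 and not for SREBF2. SCAP was higher in NC (0.56) and INSIG1 lower (-0.43).

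Scaled by library size alone, 16 of the 34 genes were lower in NC and 11 higher, beside 31.4% and 49.5% of all genes. The median log2 fold change of the 34 genes was then 0.04 while that of all genes was 0.19.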

How the data were processed

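RNA-seq libraries of 20 samples in 4 groups of 5 were used. The authors deposited whole-number counts per gene symbol and an FPKM table of the same genes, and FPKM equals the count divided by 1 length per gene and by the library total (largest relative deviation 2.8e-13). The tools named in the submitters' processing notes are fastp, HISAT2 and HTSeq, with the build hg38. These notes give no version, gene annotation or strand setting. Per the labels' protocols RNA was taken with TRIzol.

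From the counts, genes were kept by filterByExpr (minimum count 10, total 15), scaled by TMM and tested with edgeR's quasi-likelihood test (R 4.3.3, edgeR 4.0.16) in the 2 groups of each comparison, with Benjamini-Hochberg adjustment over all genes tested at 0.05. All 34 genes passed the filter in each comparison. The SE is the log2 fold change over the square root of F, and intervals are 95%. Mean ± SD is over 5 libraries. Overlap of groups was noted for the genes described here, and in no comparison was the share of all genes without overlap counted. The test was checked on simulated counts.

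The 34 genes and all gene lists were chosen with earlier results of these data known. Values in every library are given for genes past the threshold with an absolute log2 fold change of at least 0.5, at most 8 per comparison, and for SREBF1, SREBF2, INSIG1, INSIG2 and SCD. Of each other list at most 3 called genes per comparison are named. Promoters came from RefSeq (GRCh38.p14), gene overlaps from GENCODE and RefSeq annotation.

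Scaling was also done with DESeq2 size factors or by library size alone, and filtering with a minimum count of 50 or not at all. Other fits were DESeq2 1.42.0, limma-voom (limma 3.58.1), 1 fit of all 20 libraries, a block by replicate number, and limma on deposited FPKM as log2 with a pseudocount of 1 or 0.1, keeping genes whose FPKM averaged 1 or more, or all genes. Further settings were length and GC offsets (lowess span 0.3), each library left out, and pairs of libraries left out. The difference test was added after seeing the data. Counting error was small at these depths, with at least 91 counts for each gene and library, and no libraries of a group were identical.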

Additional observations from a re-analysis of the deposited data

Results flagged for a closer look

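Among 136 gene and group combinations tested for 1 library far from the other 4 (gap over range above 0.71), 8 stood out. That share is near the 1 in 20 or so that chance gives, and genes of 1 library are not independent. NFS1 replicate 4 accounted for 4 of them. It was lowest for PMVK, at 24.37 CPM against 36.09 to 37.64 CPM in the other NFS1 libraries, and for MVD, at 10.53 CPM against 15.96 to 17.99 CPM. It was highest for MSMO1, at 18.45 CPM against 11.91 to 12.88 CPM, and for ME1, at 138.5 CPM against 90.79 to 102.8 CPM. HSPA6 was also lowest of its group in that library, at 22.3 CPM. R-47 replicate 1 was highest for MSMO1, at 43.67 CPM against 27.79 to 31.89 CPM in the other R-47 libraries, and for INSIG1, at 32.83 CPM against 25.45 to 26.5 CPM. R-47 replicate 3 was highest for SCAP, at 81.03 CPM against 70.32 to 73.18 CPM, and for ACLY, at 458.1 CPM against 413.7 to 418.6 CPM. Whether anything set these libraries apart was not tested.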

How the results depend on the processing

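After heating, 12 to 23 of the 34 genes were lower over the settings (18 as reported) and 15 to 20 with 1 library left out. The number higher (1 as reported) was 2 with a minimum count of 50 and with DESeq2, 3 with library size alone, in the 3 FPKM settings and with length and GC offsets, and 1 to 2 with 1 library left out. Beside TM7SF2, ELOVL6 passed as higher in 7 of 12 settings and FADS1 in 5. With the NFS1 label 14 were lower as reported, 11 to 19 over the settings and 11 to 18 with libraries left out. The number higher (2 as reported) was 1 with DESeq2 size factors, with no filter, with the replicate block and with the offsets, and 1 to 3 with libraries left out. With the offsets 18.4% of all genes were lower and 18.1% higher in this comparison. Without NC replicate 1 and NFS1 replicate 4, 18 were lower and 3 higher. In NC against R-47, 17 to 19 were lower and 7 to 8 higher with 1 library left out. With library size alone 11 were higher (7 as reported), beside 49.5% of all genes. Lower in both comparisons were 6 as reported, 3 with log2(FPKM + 1) and no filter, 12 with the offsets, and 5 to 8 with libraries left out. The difference test called 5 to 7 genes lower and 6 to 9 higher with 1 library left out (6 and 9 as reported), and 9 lower and 7 higher with the offsets. The causes were not tested.

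The replicate numbers did not pair the libraries. Each gene's deviations from its group mean, on the log scale, correlated at -0.199 to 0.14 between same-numbered libraries. With the number as a replicate block 17 genes were lower after heating and 11 with the NFS1 label, and the calls lost were FDFT1 after heating (adjusted p = 0.074) and HMGCS1 (0.050), PMVK (0.052), FDPS (0.076) and the rise of ACACA (0.088) with the NFS1 label. In the difference test PMVK (0.052) and ME1 (0.063) were lost.

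After heating, single libraries decided several weak calls. The call of FDFT1 was lost without R-47 replicate 1, 3 or 4 or R-37 replicate 2 (adjusted p = 0.053 to 0.072). That of LSS was lost without R-47 replicate 2, 4 or 5 or R-37 replicate 1, 2 or 3 (0.056 to 0.087). That of CYP51A1 was lost without R-47 replicate 2, 3 or 5 or R-37 replicate 2 or 4 (0.056 to 0.066), and that of FASN without R-47 replicate 2, 4 or 5 or R-37 replicate 1, 3 or 4 (0.051 to 0.082). With the NFS1 label FDPS was lost without NFS1 replicate 3 or NC replicate 2 (0.051 and 0.061). In the difference test the call was lost for PMVK in 14 of 20 such fits, ME1 in 10, EBP in 9, MVD in 5 and ACLY in 4.

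The direction of some genes that had not passed turned, and none passed in the new direction. After heating ACAT2 was at 0.0092 with library size alone and 0.0087, 0.009 and 0.0087 in the FPKM settings, ACLY at 0.0013 and 0.0008 in all 3, and ACACB at 0.0143 and 0.01, 0.0175 and 0.01. INSIG2 was at 0.0634 with library size alone, 0.0016 with a minimum count of 50, 0.0505, 0.0603 and 0.0505 in the FPKM settings, 0.096 with the offsets and -0.0657 to 0.0142 with 1 library left out. With the offsets HMGCS1 was at 0.0352, PMVK at -0.0357, MVD at -0.0495 and EBP at -0.0427 after heating, ELOVL6 at -0.089 with the NFS1 label, and the difference for EBP, called as reported, at -0.0201. With the NFS1 label and 1 library left out, ME1 ranged from -0.1566 to 0.0047, ELOVL6 from -0.0422 to 0.0852 and FADS2 from -0.0131 to 0.0687. Without NFS1 replicates 2 and 3, MSMO1 was at 0.0241, ME1 at 0.0688 and FADS1 at 0.0524. ELOVL6 was at -0.0025 without NC replicate 1 and NFS1 replicate 4.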
